A study of Mus musculus with 26 samples.

Results

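The insulin-like growth factor (IGF) axis was followed in mouse RNA-seq data through Igf1, its receptor gene Igf1r, the 7 genes of the IGF-binding proteins (Igfbp1 to Igfbp7) and Igfals. These 10 genes were taken by symbol from a table of 52454 gene symbols, and all 10 were found, each as 1 row. IGF1 is a secreted growth factor that acts through the receptor tyrosine kinase IGF1R, and IGF2, its relative, is the main IGF of the embryo. The binding proteins hold IGFs in the extracellular fluid, where they can limit access to the receptor, prolong the life of the ligand or deliver it, and proteases such as PAPP-A release the ligand again. In the adult, the liver makes most circulating IGF1 under the control of growth hormone, and Igfals encodes the acid-labile subunit of the complex in which it circulates with IGFBP3 or IGFBP5. Fibroblasts and other mesenchymal cells make IGFs and binding proteins for local use.

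The study asked which loci depend on DNMT3A or DNMT3B, the enzymes that place new DNA methylation marks, and measured gene expression in embryonic fibroblasts, heart and liver. The expression table holds 10 libraries, 1 for each condition. The 2i-MEFs, mouse embryonic fibroblasts from E14.5 chimeras, came from female ES cells with an F1 (129X1/SvJ and MSM/Ms) background in which Dnmt3a or Dnmt3b had been disrupted by CRISPR/Cas9 while the cells were kept in 2i/L medium. They were freed of host cells by G418 and by sorting for GFP, and 1 Dnmt3a KO and 1 Dnmt3b KO library were used. The other MEFs, male and labelled C57BL6, came from E14.5 embryos of crosses between mice heterozygous for the Dnmt3a tm1Enl allele. Wild-type (WT) MEFs and MEFs labelled Dnmt3a KO were given DMSO or 10 μM GSK126, an inhibitor of the H3K27 methyltransferase EZH2, for 2 days. Heart and liver of E14.5 male embryos from the same kind of cross made up the other 4 libraries. Their labels carry 1 number for the WT heart and liver and another for the heart and liver labelled Dnmt3a KO. Not analysed here were a WT library of 2i-MEFs and 16 samples with DNA methylation data.

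With a single library behind every condition, differences have no replicate check and are given without p-values. Levels are in FPKM, the fragments of a gene divided by its transcript length in kilobases and by the size of the library, which allows levels of different genes to be set side by side. A gene was counted as different where FPKM + 1 differed at least 2-fold between libraries, and each count stands beside the share of genes that passed the same limit, out of 14150 whose mean over the libraries reached 1 FPKM. Estimated depth lay between 9160441 mapped reads in Dnmt3b KO 2i-MEFs and 26193057 in WT liver. Fold differences of the 10 genes carry an exact 95% interval that covers counting error alone. Dnmt3a was 4.21 FPKM in Dnmt3a KO 2i-MEFs against 23.9 in Dnmt3b KO 2i-MEFs, and 12.7 in the liver labelled Dnmt3a KO against 53.5 in WT liver. It went against the label elsewhere, at 85.7 against 26.1 FPKM in MEFs with DMSO, 84.5 against 19.3 with GSK126 and 125 against 55.0 in heart, and a value for the whole gene does not separate the targeted exons. These libraries are therefore called by their labels. The 8 fibroblast markers summed to between 6057 and 17784 FPKM in the 6 fibroblast libraries and between 278 and 1388 in the tissues. All 7 cardiomyocyte markers were above 1 FPKM in both hearts (sums 25553 and 22625 FPKM, WT first), and all 7 hepatocyte markers in both livers (26750 and 17357). Some also reached 1 FPKM in the other organ. These were 6 and 4 hepatocyte markers in the hearts (sums 80.2 and 69.5 FPKM). In the livers they were 4 and 3 cardiomyocyte markers (sums 69.6 and 16.3 FPKM). Xist was 27.9 and 32.1 FPKM in the female 2i-MEFs and under 1 FPKM in the male libraries.

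In the mm10 assembly, Igfbp2 (ENSMUSG00000039323.18, chr1:72824503-72852474, plus strand) and Igfbp5 (ENSMUSG00000026185.8, chr1:72857932-72874884, minus strand) are neighbours whose 3′ ends face each other across 5457 bases, with 0 annotated genes between them. Igfbp1 (ENSMUSG00000020429.7, chr11:7197782-7202546, plus strand) and Igfbp3 (ENSMUSG00000020427.11, chr11:7206086-7213923, minus strand) form a second such pair, 3539 bases apart with 0 genes between them. Igfbp4 (ENSMUSG00000017493.12, chr11:99041244-99054392, plus strand) lies elsewhere on chromosome 11. The remaining members are Igf1 (ENSMUSG00000020053.18, chr10:87858265-87937042, plus strand), Igf1r (ENSMUSG00000005533.10, chr7:67952827-68233668, plus strand), Igfbp6 (ENSMUSG00000023046.6, chr15:102144362-102149511, plus strand), Igfbp7 (ENSMUSG00000036256.13, chr5:77349240-77408041, minus strand) and Igfals (ENSMUSG00000046070.8, chr17:24878770-24882008, plus strand). Igf1 overlaps the antisense gene Igf1os, which reached at most 0.757 FPKM, and Igfbp7 shares 85 bases with Polr2b and overlaps Gm34648, which is listed at 0 in all 10 libraries.

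The 150 bases just before the most upstream annotated start are shown for 5 genes. Igfbp2, Igfbp5 and Igfbp4 were higher together in Dnmt3a KO 2i-MEFs, and the neighbours Igfbp1 and Igfbp3 had unlike patterns across the libraries. The sequences are from RefSeq (GRCm38.p6, the same primary assembly as mm10), written 5′ to 3′ along the gene, and capitals mark CG dinucleotides, the sites at which DNMT3A and DNMT3B mainly place methylation.
Igfbp2, chr1:72824330-72824479, plus strand: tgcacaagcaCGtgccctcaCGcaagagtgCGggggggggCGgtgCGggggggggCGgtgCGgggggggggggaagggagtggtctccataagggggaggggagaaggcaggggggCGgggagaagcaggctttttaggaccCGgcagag
Igfbp5, chr1:72874885-72875034, minus strand: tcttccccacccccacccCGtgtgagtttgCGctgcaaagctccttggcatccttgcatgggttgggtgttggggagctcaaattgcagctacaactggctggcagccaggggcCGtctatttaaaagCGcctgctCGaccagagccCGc
Igfbp4, chr11:99041094-99041243, plus strand: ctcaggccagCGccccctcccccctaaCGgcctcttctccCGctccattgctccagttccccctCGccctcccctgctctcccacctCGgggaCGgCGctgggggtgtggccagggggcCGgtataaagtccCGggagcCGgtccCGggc
Igfbp1, chr11:7197632-7197781, plus strand: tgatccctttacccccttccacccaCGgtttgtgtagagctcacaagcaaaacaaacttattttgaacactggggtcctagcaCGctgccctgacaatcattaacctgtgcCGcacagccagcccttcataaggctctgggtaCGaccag
Igfbp3, chr11:7213924-7214073, minus strand: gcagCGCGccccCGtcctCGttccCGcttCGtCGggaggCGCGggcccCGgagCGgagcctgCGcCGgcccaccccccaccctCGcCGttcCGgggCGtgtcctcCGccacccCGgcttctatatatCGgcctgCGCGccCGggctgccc

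These stretches hold 9 CG in Igfbp2, 6 in Igfbp5, 11 in Igfbp4, 4 in Igfbp1 and 23 in Igfbp3. Over the RefSeq windows of 300 bases (250 before to 50 after each start), which were at hand for all 10 genes, the CG count was 48 in Igf1r, 37 in Igfbp3, 33 in Igfbp7 and 27 in Igfbp4, against a median of 7 over 32851 windows. It was 18 and 14 at the 2 starts of Igfbp2, 10 in Igfbp5, 8 in Igfbp1, 8 in Igfbp6, 6 in Igf1 and 4 to 6 at the 3 starts of Igfals. As many CG as in Igfbp3 were found in 5.58% of all windows, and as many as in the upstream window of Igfbp2 in 29.7%. Both strands were searched for the letters TATAAA, which 13.6% of all windows hold, and for GGGCGG, which 35.7% hold. TATAAA was found in Igfbp4, where it begins 28 bases before the start on the gene's own strand, and on the opposite strand in Igfbp6. GGGCGG was found 3 times in the upstream window of Igfbp2, 4 times in Igfbp7, 2 times in Igf1r and in 2 of the 3 windows of Igfals. A match to these letters is a description of the sequence and no evidence that a factor binds there.

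Igf1, the ligand, was highest in MEFs, at 109 FPKM (WT, DMSO), 99.1 (WT, GSK126), 89.7 in those labelled Dnmt3a KO with DMSO and 77.1 in those labelled Dnmt3a KO with GSK126. It was 52.5 FPKM in Dnmt3a KO and 29.3 in Dnmt3b KO 2i-MEFs, 19.1 in WT heart, 18.1 in the heart labelled Dnmt3a KO, 13.8 in WT liver and 6.37 in the liver labelled Dnmt3a KO. All 6 fibroblast libraries were thus above all 4 tissue libraries, and liver was the lowest tissue at this embryonic age. Igf1r, the receptor, ranged far less. It lay between 16.8 and 19.4 FPKM in the 6 fibroblast libraries, at 13.9 and 13.2 in heart and at 7.57 and 4.60 in liver, a 4.22-fold range over all 10 libraries against 17.1-fold for Igf1. In both hearts and both livers the insulin receptor gene Insr was at about the level of Igf1r or above it (Igf1r to Insr ratio 0.986 and 0.961 in heart, 0.931 and 0.701 in liver), whereas the ratio was 2.37 to 3.93 in the fibroblast libraries.

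**Figure D1:**
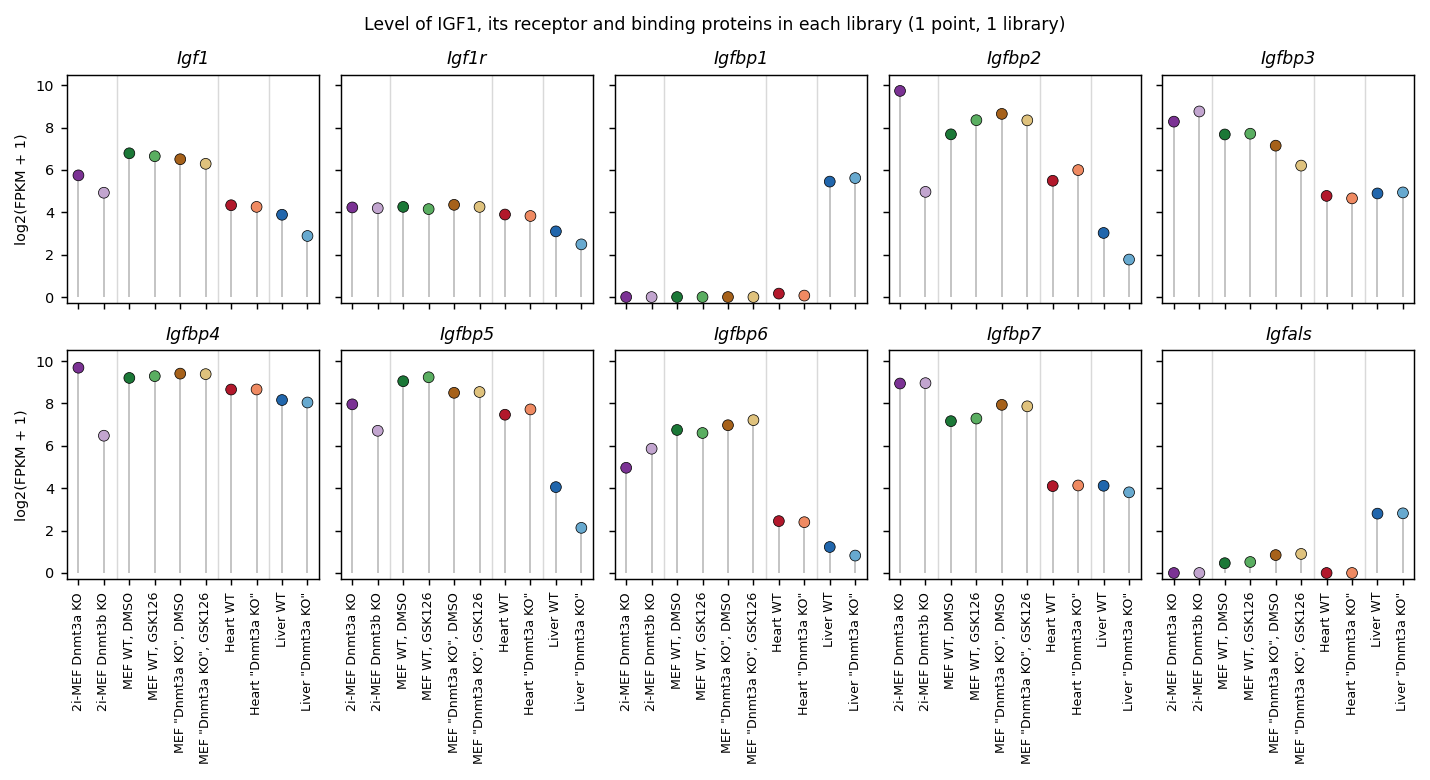
Level of each of the 10 genes as log2(FPKM + 1) on the vertical axis, with 1 point for each library and the 10 libraries along the horizontal axis; quotation marks stand around the Dnmt3a KO label of MEFs, heart and liver, and 0 on the axis is 0 FPKM. Igfbp1 and Igfals are highest in liver, Igfbp6 and Igfbp7 are higher in all 6 fibroblast libraries than in all 4 tissues, and Igfbp2 spans from 2.41 to 847 FPKM.

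Igfbp4, a binding protein commonly described as an inhibitor of IGF action until it is cleaved by PAPP-A, was the highest of the 10 genes in 8 of the 10 libraries. It was 589, 624, 678 and 667 FPKM in the MEFs (WT with DMSO and with GSK126, then labelled Dnmt3a KO with DMSO and with GSK126), 403 and 403 in WT heart and the heart labelled Dnmt3a KO, and 285 and 263 in the livers in the same order. The 2i-MEFs were the exception, at 823 FPKM in Dnmt3a KO and 88.1 in Dnmt3b KO cells, the lowest of all libraries. Igfbp2, the binding protein abundant in fetal tissues and fluids, was 847 FPKM in Dnmt3a KO and 30.2 in Dnmt3b KO 2i-MEFs, 204 and 324 in WT MEFs with DMSO and GSK126, 399 and 323 in MEFs labelled Dnmt3a KO, 43.9 and 62.6 in WT heart and the heart labelled Dnmt3a KO, and 7.14 and 2.41 in the livers. It had the widest log2 span of the 10 genes over the libraries (7.96 on FPKM + 1). Igfbp5, a binding protein with strong affinity for extracellular matrix, followed with a span of 7.10.

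Igfbp5 was 529 and 602 FPKM in WT MEFs with DMSO and GSK126, 362 and 371 in MEFs labelled Dnmt3a KO, 248 in Dnmt3a KO and 104 in Dnmt3b KO 2i-MEFs, 176 and 210 in heart, and 15.6 and 3.38 in liver. Its order thus ran from MEFs to liver, with heart within the range of the 2i-MEFs. Igfbp3, the main carrier of IGFs in adult plasma, was highest in 2i-MEFs, at 309 FPKM in Dnmt3a KO and 432 in Dnmt3b KO cells. It was 203 and 208 in WT MEFs, 140 and 72.7 in MEFs labelled Dnmt3a KO with DMSO and GSK126, 26.3 and 24.2 in heart and 28.6 and 29.6 in liver, so that the tissues spanned only 1.22-fold. Igfbp7, a low-affinity IGF binder found in the matrix of vessels and stroma, was 490 and 496 FPKM in Dnmt3a KO and Dnmt3b KO 2i-MEFs, 142 and 155 in WT MEFs, 244 and 232 in MEFs labelled Dnmt3a KO, 16.1 and 16.5 in heart and 16.3 and 13.0 in liver. Igfbp6, which prefers IGF2 over IGF1, was 30.2 and 57.2 FPKM in Dnmt3a KO and Dnmt3b KO 2i-MEFs, 107 and 96.4 in WT MEFs, 125 and 147 in MEFs labelled Dnmt3a KO, 4.46 and 4.27 in heart and 1.34 and 0.767 in liver. Both Igfbp6 and Igfbp7 were low in the tissues, and neither range overlapped that of the fibroblasts.

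Igfbp1 and Igfals were highest in liver. Igfbp1, a hepatic binding protein repressed by insulin, was 42.6 FPKM in WT liver and 48.0 in the liver labelled Dnmt3a KO, or about 1481 and 1635 reads. It is listed at 0 in all 6 fibroblast libraries, and the hearts held about 3 reads (0.119 FPKM, WT) and 1 read (0.0489 FPKM, labelled Dnmt3a KO). Igfals was 5.97 and 6.04 FPKM in the livers and is listed at 0 in both hearts and both 2i-MEF libraries. In MEFs it was 0.378 and 0.433 FPKM in WT and 0.797 and 0.866 in those labelled Dnmt3a KO, with DMSO and GSK126 in each case, which corresponds to between 2 and 49 reads depending on the transcript assumed. Reads for members with several transcripts can be given only as such a range.

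The summed FPKM of the 7 binding proteins was 2747 in Dnmt3a KO and 1207 in Dnmt3b KO 2i-MEFs, 1773 to 2010 in MEFs, 670 and 721 in heart, and 397 and 360 in liver. Igfbp4 alone made up 71.9% and 73.0% of this sum in the livers, 60.1% and 56.0% in the hearts and 31.0% to 36.8% in the MEFs. In Dnmt3a KO 2i-MEFs, Igfbp2 (30.8%) and Igfbp4 (29.9%) together led, whereas Igfbp7 (41.1%) and Igfbp3 (35.8%) led in Dnmt3b KO 2i-MEFs. Igfbp5 held 29.8% and 29.9% in WT MEFs and 18.6% and 20.5% in MEFs labelled Dnmt3a KO. The order of members within a library has no replicate spread behind it.

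**Figure D2:**
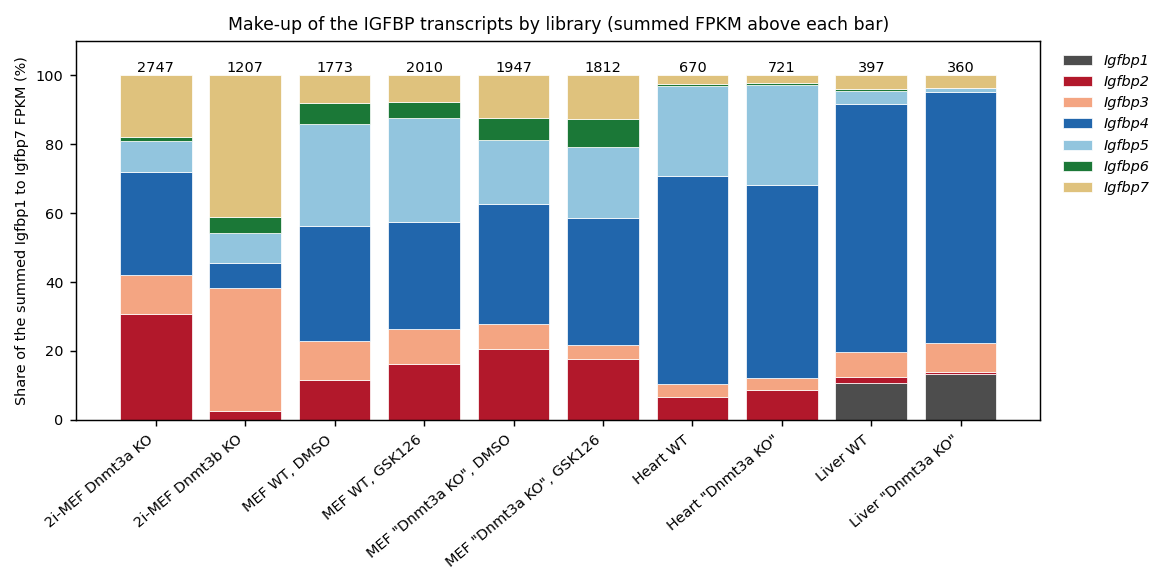
Share of the summed FPKM of Igfbp1 to Igfbp7 held by each gene (vertical axis, percent, stacked from 0) in each of the 10 libraries, with the sum in FPKM printed above each bar and quotation marks around the Dnmt3a KO label of MEFs, heart and liver. The Igfbp4 segment is the largest in tissues and MEFs, at 31.0% to 73.0%, and shrinks to 7.3% in Dnmt3b KO 2i-MEFs.

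The ligand that these proteins could hold differed between the cell sources. Igf2 was 4320 to 5158 FPKM in MEFs, 3379 and 3158 in WT heart and the heart labelled Dnmt3a KO, and 1548 and 1226 in the livers, but 2.3 and 1.04 in Dnmt3a KO and Dnmt3b KO 2i-MEFs. Igf2 exceeded Igf1 39.6 to 66.9 times in MEFs and 113 to 192 times in the tissues, whereas in 2i-MEFs Igf1 exceeded Igf2 22.8 and 28.1 times. Igf2 is an imprinted gene expressed from the paternal allele. The summed binding proteins were 0.346 to 0.403 of the summed ligands Igf1 and Igf2 in MEFs and 0.197 to 0.292 in tissues, against 50.1 and 39.8 times the ligands in Dnmt3a KO and Dnmt3b KO 2i-MEFs. Strain, sex and the history of the ES cells differ between 2i-MEFs and the other MEFs together, and their parts cannot be told apart.

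In the comparison of the KO 2i-MEFs, Igfbp2, Igfbp4 and Igfbp5 were higher in Dnmt3a KO than in Dnmt3b KO cells, and Igf1r and Igfbp7 were at nearly the same level. Igfbp2 was 28.0-fold higher (847 against 30.2 FPKM, interval 24.3 to 32.4), a log2 ratio of 4.76. Igfbp4 was 9.33-fold higher (823 against 88.1 FPKM, interval 8.09 to 10.8). Igfbp5 was 2.39-fold higher (248 against 104 FPKM, interval 2.3 to 2.48). Together, 3 of 10 members passed 2-fold, all upward, where 6.73% of the 14150 genes did so in either direction (598 higher, 355 lower). A ratio as large as that of Igfbp2 was seen in 0.339% of these genes, as large as that of Igfbp4 in 0.813% and as large as that of Igfbp5 in 4.42%.

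The ligand Igf1 was 1.79-fold higher in Dnmt3a KO 2i-MEFs (52.5 against 29.3 FPKM, interval 1.36 to 2.33) and stayed within 2-fold. Igfbp6 was 1.89-fold higher in Dnmt3b KO cells (57.2 against 30.2 FPKM, interval 1.64 to 2.19), and Igfbp3 1.40-fold higher there (432 against 309 FPKM, interval 1.35 to 1.45). Igf1r was 17.7 against 17.3 FPKM and Igfbp7 490 against 496, with ratios of 1.03 and 0.988 whose counting intervals reach from 0.764 to 1.39 and from 0.948 to 1.03. Igfbp1 and Igfals are listed at 0 in both. The members thus did not share a direction, and the median log2 ratio over the 10 was 0.02, against 0.02 for all genes.

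Of 40 further genes of the IGF pathway, 4 passed 2-fold upward in Dnmt3a KO 2i-MEFs and 0 downward. Among the 33 of them that reached a mean of 1 FPKM, 3 passed (9.09%, against 6.73% of all genes), and Pappa2 is the one below that mean. Htra3, a secreted serine protease with an IGFBP-like domain, was 153 against 17.2 FPKM (8.89-fold). Wisp2 (CCN5), a matricellular protein, was 426 against 132 FPKM (3.24-fold), and Kazald1, an IGFBP-related protein, 10.2 against 3.05 FPKM (3.36-fold). Pappa2, a protease that cleaves IGFBP3 and IGFBP5, was 2.67 against 0.772 FPKM. Pappa, the protease of IGFBP4, was 14.8 against 23.7 FPKM and stayed within 2-fold, and so did the receptors and all adaptors. The 8 fibroblast markers summed to 17784 FPKM in Dnmt3a KO and 16808 in Dnmt3b KO 2i-MEFs with 0 of 8 past 2-fold. The 4 smooth muscle markers summed to 2964 against 4503 FPKM with all 4 lower in Dnmt3a KO cells, 2 of them at least 2-fold, and the 4 proliferation markers to 135 against 90.2 FPKM with all 4 higher. Of the 7 skeletal muscle markers, 5 were lower in Dnmt3a KO cells and 1 higher, with 2 and 1 past 2-fold, and of the 5 epicardial and mesothelial markers 3 were lower (1 of them, Wt1, past 2-fold) and 2 higher. The part of these lists in the differences was not tested, nor was that of the particular ES cell clone behind each library.

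**Figure D3:**
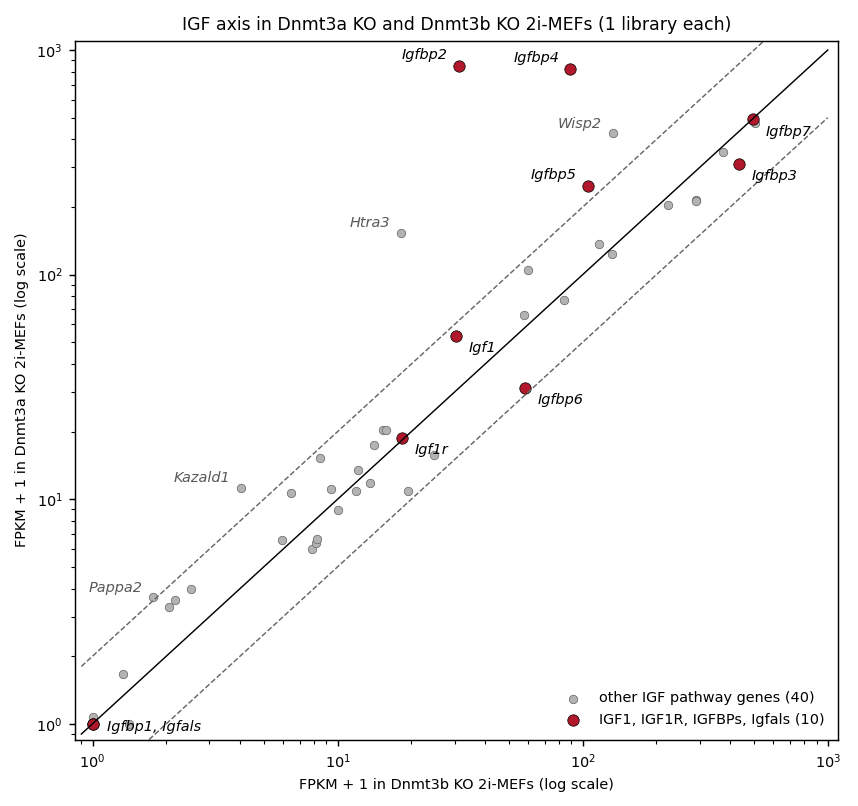
FPKM + 1 in Dnmt3b KO 2i-MEFs (horizontal, log scale) against Dnmt3a KO 2i-MEFs (vertical, log scale), 1 library each, for the 10 IGF genes (red) and 40 other pathway genes (grey); the solid line marks equal levels and dashed lines 2-fold. Igfbp2 (847 against 30.2 FPKM) and Igfbp4 (823 against 88.1 FPKM) lie far above the upper dashed line, while Igf1r and Igfbp7 lie on the line of equal levels.

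In MEFs with DMSO, the library labelled Dnmt3a KO had more Igfbp2 and Igfbp7 and less Igfbp3 and Igfbp5 than WT, and 0 of 10 members passed 2-fold, where 4.81% of all genes did. Igfbp2 was 1.96-fold higher (399 against 204 FPKM, interval 1.87 to 2.05, log2 ratio of FPKM + 1 of 0.97), just short of the limit. Igfbp7 was 1.71-fold higher (244 against 142 FPKM, interval 1.63 to 1.79). Igfbp5 was 1.46-fold lower (362 against 529 FPKM, interval 1.44 to 1.48) and Igfbp3 was 0.692 of the WT level (140 against 203 FPKM, interval 0.666 to 0.718). Igf1 was 1.22-fold lower (89.7 against 109 FPKM), and Igf1r was 19.4 against 18.1 FPKM.

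The same comparison under GSK126 kept Igfbp7 higher (232 against 155 FPKM, 1.49-fold) and Igfbp5 and Igf1 lower (371 against 602 FPKM, 1.62-fold, and 77.1 against 99.1 FPKM, 1.29-fold) in the library labelled Dnmt3a KO. Igfbp3 was here 2.86-fold lower (72.7 against 208 FPKM, interval 2.73 to 3.01), the 1 of 10 members past 2-fold, where 4.26% of all genes passed. Igfbp2 was 323 against 324 FPKM, and Igfbp6 1.53-fold higher (147 against 96.4 FPKM, interval 1.44 to 1.62). Of the 40 pathway genes, Htra1, a serine protease that can cleave IGFBPs, was at least 2-fold lower in both treatments (67.2 against 155 FPKM with DMSO, 81.3 against 172 with GSK126). The adaptor genes Grb10 (390 against 188 FPKM, higher) and Grb14 (8.95 against 23.4 FPKM, lower) passed with DMSO alone. The 5 epicardial and mesothelial markers summed to 99.1 FPKM in MEFs labelled Dnmt3a KO against 50.4 in WT with DMSO and to 227 against 58.4 with GSK126, with 4 of 5 higher and 1 lower each time. Of the 7 skeletal muscle markers, 3 were higher (each at least 2-fold) and 3 lower with DMSO (sum 64.0 against 22.7 FPKM), and 4 were higher and 3 lower with GSK126, 0 of them past 2-fold (sum 39.1 against 30.5 FPKM). The 8 fibroblast markers summed to 9115 against 11882 and to 6057 against 8889 FPKM, with 7 of 8 lower each time, and the part of these marker lists in the differences was not tested.

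GSK126 against DMSO was compared within each label, and these comparisons share libraries with those above. In WT MEFs, 0 of 10 members passed 2-fold, where 2.54% of all genes did. Igfbp2 was 1.59-fold higher with GSK126 (324 against 204 FPKM, interval 1.51 to 1.67), Igfbp5 was 602 against 529 FPKM, and the other members were within 1.11-fold except Igfals, which rests on few reads. In MEFs labelled Dnmt3a KO, again 0 of 10 passed, where 3.78% of all genes did. Igfbp3 was 1.93-fold lower with GSK126 (72.7 against 140 FPKM, interval 1.84 to 2.03), and Igfbp2 was 1.24-fold lower (323 against 399 FPKM, interval 1.19 to 1.28). Stc2, which encodes an inhibitor of PAPP-A, was the only pathway gene past 2-fold, at 4.16 against 1.29 FPKM in WT MEFs. The 4 proliferation markers were lower with GSK126 in both (88.7 against 158 FPKM in sum in WT and 82.5 against 134 in the library labelled Dnmt3a KO). In MEFs labelled Dnmt3a KO, 7 of 8 fibroblast markers (sum 6057 against 9115 FPKM, 1 past 2-fold) and all 4 smooth muscle markers (sum 1854 against 2608 FPKM) were also lower with GSK126, and 2 of 5 epicardial and mesothelial markers were at least 2-fold higher and 3 lower within 2-fold (sum 227 against 99.1 FPKM). In WT MEFs, 5 of 8 fibroblast markers were lower (sum 8889 against 11882 FPKM) and 0 past 2-fold. The part of these lists was not tested.

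**Figure D4:**
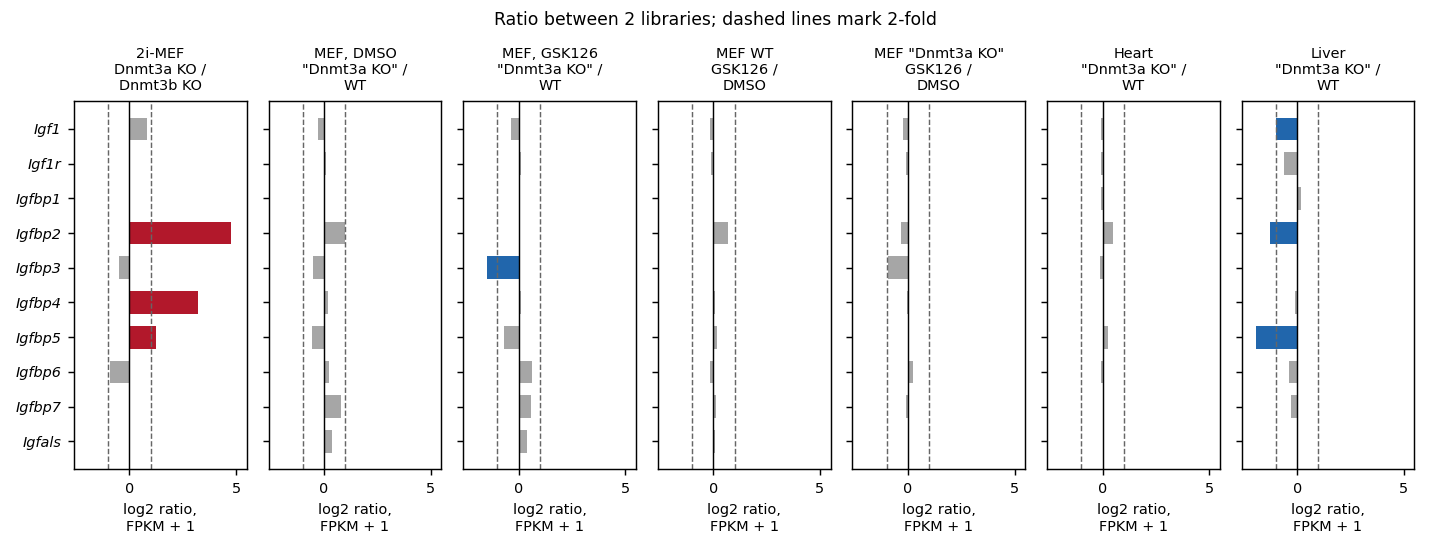
Log2 ratio of FPKM + 1 for each of the 10 genes (rows) in 7 comparisons of 1 library against another (panels), with dashed lines at 2-fold, red bars for at least 2-fold higher, blue bars for at least 2-fold lower and quotation marks around the Dnmt3a KO label. Bars past 2-fold stand in 3 panels: Igfbp2, Igfbp4 and Igfbp5 in the 2i-MEFs, Igfbp3 in MEFs under GSK126, and Igf1, Igfbp2 and Igfbp5 in liver.

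In heart, the IGF axis had similar levels in the library labelled Dnmt3a KO and its WT counterpart. Among the 10 members, 0 passed 2-fold, where 2.58% of all genes did, and 0 of 40 pathway genes passed. Igfbp2 was 1.43-fold higher (62.6 against 43.9 FPKM, interval 1.28 to 1.60) and Igfbp5 1.19-fold higher (210 against 176 FPKM, interval 1.16 to 1.22). Igfbp4 was 403 FPKM in both, with a counting interval of the ratio from 0.937 to 1.07, and Igf1, Igf1r, Igfbp3, Igfbp6 and Igfbp7 had ratios between 0.919 and 1.02. Of the 7 hepatocyte markers, 6 were lower in the heart labelled Dnmt3a KO, 5 of them at least 2-fold (sum 69.5 against 80.2 FPKM). Trf was the 1 higher (58.5 against 30.1 FPKM) and weighs most in these sums, while Alb was 3.04 against 12.7 FPKM. All 7 erythroid markers were lower (sum 14319 against 19887 FPKM). The part of either list was not tested.

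In liver, Igfbp5, Igfbp2 and Igf1 were lower in the library labelled Dnmt3a KO than in WT, and Igfbp1 and Igfals, the members highest in liver, were at nearly the same level, as was Igfbp4. Igfbp5 was 4.61-fold lower (3.38 against 15.6 FPKM, interval 4.11 to 5.18). Igfbp2 was 2.96-fold lower (2.41 against 7.14 FPKM, interval 2.08 to 4.24) and Igf1 2.16-fold lower (6.37 against 13.8 FPKM, interval 1.54 to 3.06). These were 3 of 10 members, where 2.61% of all genes passed 2-fold, 126 upward and 244 downward. Igf1 lay at the limit, with a log2 ratio of FPKM + 1 of -1.0. It no longer passed after the ratios were centred on the median of all genes (-0.92), which left 2 of 10 members past 2-fold. Igf1r was 0.608 of the WT level (4.60 against 7.57 FPKM, interval 0.436 to 0.835) and Igfbp7 1.26-fold lower. Igfbp6 was 0.767 against 1.34 FPKM, about 18 and 32 reads, and the counting interval of its ratio includes 1.

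Igfbp1 was 48.0 against 42.6 FPKM (1.12-fold higher, interval 1.05 to 1.21), Igfbp3 29.6 against 28.6, Igfbp4 263 against 285 and Igfals 6.04 against 5.97 FPKM. The median log2 ratio of the 10 members was -0.36, against -0.08 for all genes, and 0 of 40 pathway genes passed 2-fold. Marker lists of several cell types also differed between the livers, in both directions. All 7 skeletal muscle markers were lower in the liver labelled Dnmt3a KO, 6 of them at least 2-fold with a median log2 ratio of -2.67 (sum 112 against 288 FPKM), and Myod1 is listed at 0 there. All 8 fibroblast markers were lower (sum 278 against 517 FPKM), 2 of them at least 2-fold, and 4 of 7 cardiomyocyte markers were lower, 3 of them at least 2-fold (sum 16.3 against 69.6 FPKM). Hepatocyte markers summed to 17357 against 26750 FPKM with 5 of 7 lower and 0 past 2-fold. Erythroid markers summed to 86731 against 58780 FPKM with 4 of 7 higher, the globin genes Hba-a1 and Hbb-bt making up most of the sum, and 3 lower (Gata1, Klf1 and Slc4a1). All 5 epicardial and mesothelial markers and 3 of 4 smooth muscle markers were lower, with 0 past 2-fold. Endothelial markers were higher in 5 of 6 and lower in 1 (sum 61.1 against 64.4 FPKM). Proliferation markers were higher in 3 of 4 and lower in 1 (sum 909 against 852 FPKM). In these lists, too, 0 passed 2-fold. The part of these differences in the ratios of Igfbp5, Igfbp2 and Igf1 was not tested. In whole tissue, fewer cells of a type and less RNA per cell cannot be told apart.

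**Figure D5:**
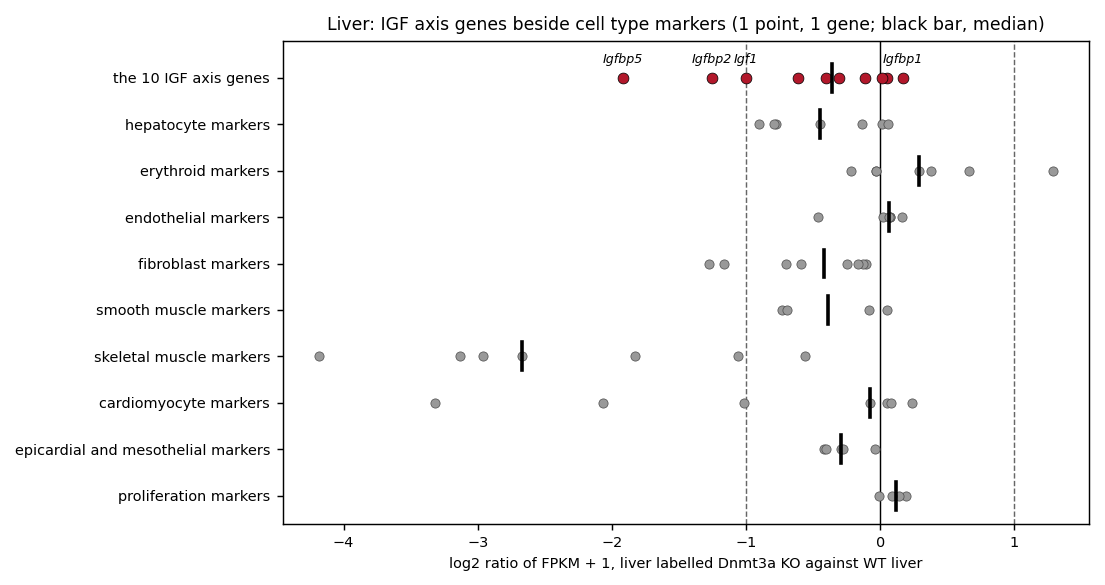
Log2 ratio of FPKM + 1 between the liver labelled Dnmt3a KO and WT liver (horizontal axis, dashed lines at 2-fold) for the 10 IGF genes (red) and for markers of 9 cell types or states (grey), with 1 point for each gene and a black bar for each median. Igfbp5, Igfbp2 and Igf1 reach 2-fold lower, and so do 6 of 7 skeletal muscle and 2 of 8 fibroblast markers.

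Heart and liver differed in Igfbp5, Igfbp2 and Igfbp6, which were higher in heart, and in Igfbp1 and Igfals, which were higher in liver. In WT, Igfbp5 was 11.3-fold higher in heart (176 against 15.6 FPKM, interval 10.7 to 11.9), Igfbp2 6.14-fold higher (43.9 against 7.14 FPKM, interval 5.08 to 7.49) and Igfbp6 3.33-fold higher (4.46 against 1.34 FPKM, interval 2.18 to 5.19). Igfbp1 was 357-fold higher in liver, with an interval of 122 to 1733 because heart held about 3 reads, and Igfals is listed at 0 in heart. With these, 5 of 10 members passed 2-fold, where 37.9% of all genes did. In the libraries labelled Dnmt3a KO, 7 of 10 passed, where 39.8% of all genes did, with Igf1 (18.1 against 6.37 FPKM, 2.84-fold) and Igf1r (13.2 against 4.60 FPKM, 2.86-fold) added to those higher in heart. Igfbp3, Igfbp4 and Igfbp7 were within 2-fold in both. Of the 40 pathway genes, 17 were higher in WT heart and 4 lower, among them Igf2 and Igf2r, which encodes the receptor that clears IGF2, on the higher side and Jak2 and Stat5a on the lower side. Among the 5 genes of the growth hormone axis, Ghr (34.0 against 16.1 FPKM) and Socs2 (16.1 against 2.75 FPKM) were higher in WT heart and Jak2 (4.41 against 19.2 FPKM) and Stat5a (1.48 against 7.55 FPKM) lower, with Stat5b within 2-fold.

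Against the tissues, fibroblasts had higher levels of most members. Between WT MEFs with DMSO and WT heart, 6 of 10 members were at least 2-fold higher and 0 lower, where 33.0% of all genes passed. Igfbp6 (107 against 4.46 FPKM, 23.9-fold), Igfbp7 (142 against 16.1 FPKM, 8.83-fold), Igfbp3 (203 against 26.3 FPKM, 7.70-fold) and Igf1 (109 against 19.1 FPKM, 5.70-fold) had the largest ratios. Against WT liver, all 10 members passed, 8 higher and 2 (Igfbp1 and Igfals) lower, where 45.8% of all genes passed. Across all 10 libraries, the 6 fibroblast libraries lay wholly above the 4 tissue libraries in 5 of 10 members (Igf1, Igf1r, Igfbp3, Igfbp6 and Igfbp7), as they did in 19.8% of all genes. With FPKM divided by the upper quartile of each library, Igf1r no longer did so, which left 4 of 10. They lay wholly below in 1 of 10 (Igfbp1), as in 17.0% of all genes. Igfbp2, Igfbp4 and Igfbp5 overlapped between fibroblasts and tissues. Dnmt3b KO 2i-MEFs were within the range of the tissues in Igfbp2 and Igfbp5 and below it in Igfbp4. Of the 40 pathway genes, 13 lay wholly above and 3 below. They include Pappa (2.85 to 23.7 FPKM in fibroblasts, at most 0.449 in tissues) and the growth hormone receptor gene Ghr (46.9 to 82.9 against 15.8 to 34.0 FPKM). Culture and the makeup of a tissue differ together here and cannot be told apart.

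Fibroblasts of both origins were also set side by side under the Dnmt3a KO label. Igfbp7 (490 against 244 FPKM), Igfbp3 (309 against 140 FPKM) and Igfbp2 (847 against 399 FPKM) were 2.01-fold, 2.2-fold and 2.12-fold higher in Dnmt3a KO 2i-MEFs than in MEFs labelled Dnmt3a KO with DMSO, and Igfbp6 was 4.12-fold lower (30.2 against 125 FPKM). These were 4 of 10 members, where 12.0% of all genes passed. After centring on the median of all genes, Igfbp7 no longer passed (log2 ratio 0.97), which left 3 of 10. Among the pathway genes, 8 were higher and 5 lower. Igf2 (2.3 against 4746 FPKM), Grb10 (2.56 against 390 FPKM) and Igf2r (14.2 against 108 FPKM) were lower, as were the matricellular genes Ctgf (211 against 577 FPKM) and Cyr61 (352 against 1414 FPKM). The 8 higher were Htra1, Htra3, Nov, Pappa, Pappa2, Stc2, Wisp1 and Wisp2. Igf1, Igf1r, Igfbp4 and Igfbp5 stayed within 2-fold. All 8 fibroblast markers were higher in Dnmt3a KO 2i-MEFs, 3 of them at least 2-fold (sum 17784 against 9115 FPKM), and 4 of 5 epicardial and mesothelial markers were at least 2-fold lower (sum 13.1 against 99.1 FPKM). Of the 7 skeletal muscle markers 2 were at least 2-fold lower, as were 2 of 7 hepatocyte markers (sum 4.89 against 76.3 FPKM). Trf made up most of the hepatocyte sum (4.53 against 73.7 FPKM). The part of these lists in the ratios was not tested.

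Likeness between members was measured as the mean absolute difference of log2(FPKM + 1) over the 10 libraries after centring each gene on its own mean, which describes these libraries and carries no test. The closest pair of members was Igf1r and Igfbp4 (0.519), followed by Igfbp3 and Igfbp7 (0.721). The measure is not scaled for span, so genes that vary little can lie close without sharing a pattern. Igf1r and Igfbp4 had log2 spans of 1.87 and 3.21. Between Dnmt3a KO and Dnmt3b KO 2i-MEFs, Igfbp4 differed 9.33-fold and Igf1r 1.03-fold. The neighbouring genes Igfbp2 and Igfbp5 were 0.861 apart, the fourth closest of 45 pairs, and the neighbours Igfbp1 and Igfbp3 were 2.71 apart, the fifth most distant. Among 12760 protein-coding genes, Apof (0.049) and Hnf4a (0.053) were closest to Igfbp1. Apof encodes a secreted protein of the liver and Hnf4a a transcription factor of hepatocytes. Closest to Igf1 were Unc5c (0.169), Sash1 (0.223) and Plpp3 (0.224), to Igfbp5 Scrn1 (0.321), Cav1 (0.460) and Fbn2 (0.471), and to Igfbp3 Lum (0.288), Nucb2 (0.329) and En1 (0.347). For Igfbp6 they were Cdkn1a (0.289), Trnp1 (0.343) and Vegfd (0.344), for Igfbp7 Ccl7 (0.210), Adam23 (0.264) and Impact (0.277), and for Igfals Rgs18 (0.120), Chek2 (0.142) and Mxd1 (0.145). Igfbp4 was closest to Astn2 (0.324), Cd83 (0.329) and Mthfs (0.330), each lower in Dnmt3b KO than in Dnmt3a KO 2i-MEFs (0.633 against 3.21 FPKM, listed at 0 against 0.701, and 1.69 against 6.89). Igfbp2 had the least similar set, Adamtsl4 (0.608), Mme (0.651) and Bmp4 (0.662), each higher in Dnmt3a KO than in Dnmt3b KO 2i-MEFs (20.7 against 4.53, 30.9 against 4.66 and 82.4 against 33.3 FPKM).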

How the data were processed

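RNA-seq (poly(A) RNA, a stranded dUTP kit, 75-base single reads) was analysed in 10 libraries, 1 for each condition. After trimming (cutadapt), the authors aligned reads to mm10 and GENCODE M15 using tophat and bowtie2. Uniquely mapped reads of MAPQ 20 or more entered cufflinks 2.2.1, which gave FPKM. The matrix of 52609 rows, 1 per gene model, holds these FPKM as deposited. It has no read counts, and the sources name no other scaling step. Whether cufflinks used strand is not given in the sources used here. The 155 rows that repeat a symbol were summed with it. FPKM divides by the total of a library, so a few very abundant transcripts, such as globins in liver, lower all other values.

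Depth was estimated from low FPKM values of genes with 1 annotated transcript of 1500 to 8000 bases, which are multiples of the value of 1 read at a fragment length of 200. Between 96.4% and 98.0% of values under 10 reads fell within 0.1 of a whole number. Reads of a member were estimated for its shortest and longest GENCODE M21 transcript, intervals are exact (Clopper-Pearson) 95% intervals of the ratio for the shortest, and they cover counting error only, since the reads have no molecular identifiers.

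In each of 12 comparisons, a 2-fold limit was set on the log2 ratio of FPKM + 1, a scale that understates changes of low genes. No test was run, since each condition has 1 library. Named genes are the 10 members, those of 40 IGF pathway genes past 2-fold or best known for their role, the 3 genes most like each member whose log2 values span at least 2 (1 of those for Igfbp1 is not reported here), and Dnmt3a and Xist as checks of labels. The members, lists and markers were chosen with earlier results of these data known. Alternatives were a pseudocount of 0.1, centring on the median of all genes, a 1.5-fold limit, a filter on low values, the highest row for repeated symbols and, for fibroblasts against tissues, scaling to the upper quartile. The calculations were tested on simulated data and run with scipy 1.17.1, pandas 2.3.3 and numpy 2.4.6 under Python 3.11.15.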

Additional observations from a re-analysis of the deposited data

Results flagged for a closer look

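Igfbp2 and Igfbp7 differed in opposite directions under contrasts of the same labels in different cells or tissues, by at least 1.2-fold and beyond counting error each time. The log2 ratio of Igfbp2 between GSK126 and DMSO was 0.67 in WT MEFs and -0.31 in MEFs labelled Dnmt3a KO. For the label Dnmt3a KO against WT, Igfbp2 had log2 ratios of 0.97 in MEFs with DMSO, 0.50 in heart and -1.26 in liver. Igfbp7 had 0.77 in MEFs with DMSO but -0.31 in liver. With GSK126, the ratios of this label contrast in MEFs were -0.007 for Igfbp2 and 0.58 for Igfbp7. The contrasts among MEFs share libraries, so their ratios are not separate results. Dnmt3a itself was higher in the library labelled Dnmt3a KO in MEFs with DMSO (85.7 against 26.1 FPKM) and heart (125 against 55.0 FPKM). In liver, Dnmt3a was lower in the library so labelled (12.7 against 53.5 FPKM). A value for the whole gene does not separate the targeted exons, and a link to the ratios above was not tested. With 1 library per condition, these differences between contrasts were not tested.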

How the results depend on the processing

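With a limit of 1.5-fold in place of 2-fold, the number of the 10 members past it moved to 5 in Dnmt3a KO against Dnmt3b KO 2i-MEFs, 2 and 3 in the libraries labelled Dnmt3a KO against WT MEFs with DMSO and GSK126, and 1 and 1 for GSK126 against DMSO in WT MEFs and MEFs labelled Dnmt3a KO, and stayed within 1.5 times of the count at 2-fold in the other 7 comparisons. The share of all genes past 1.5-fold is not given here, so the counts at that limit cannot be set against it. The other alternatives changed none of the counts in the 12 comparisons by more than 1.5 times. Centring on the median of all genes ended the call of Igf1 in liver (2 in place of 3 members) and of Igfbp7 in Dnmt3a KO 2i-MEFs against MEFs labelled Dnmt3a KO (3 in place of 4). Scaling to the upper quartile left 4 in place of 5 members wholly higher in fibroblasts than in tissues, without Igf1r. The cause was not tested. No paired analysis was run, because none of the comparisons comes from a test. A fit over both embryos with heart and liver, or over label and treatment of MEFs, was not run. Depth limits Igfbp1 in heart (1 and 3 reads), Igfals in MEFs and Igfbp6 in liver.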
